A study of Mus musculus with 6 samples.

Results

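The leukocyte beta-2 integrins are described here in the gonadal fat pad (gWAT), a visceral depot next to the reproductive organs, under a normal chow diet (NCD) and a high-fat diet (HFD). Their 5 genes were taken from the 19790 genes of the count table by NCBI gene identifier: *Itgb2* (16414), *Itgam* (16409), *Itgax* (16411), *Itgal* (16408) and *Itgad* (381924). The RNA came from wild-type C57BL/6 mice, 3 per diet, that had eaten NCD or HFD for 8 weeks. The sample labels start the diets at 6 weeks of age, the study's methods give a later start, and the labels list no transgene or drug for either group. The C57BL/6 mice of the methods are male. Whole fat pads hold adipocytes, vessels and immune cells together. In such bulk RNA, fewer cells of a type and less RNA per cell cannot be told apart.

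Beta-2 integrins are adhesion receptors of white blood cells. Each consists of the common beta chain CD18, encoded by *Itgb2*, and 1 of several alpha chains: CD11a (*Itgal*, giving LFA-1), CD11b (*Itgam*, giving Mac-1 or complement receptor 3), CD11c (*Itgax*, giving complement receptor 4) and CD11d (*Itgad*). An alpha chain needs CD18 to reach the cell surface. The receptors bind intercellular adhesion molecules on endothelium, and Mac-1 and the CD11c receptor also bind complement fragments and fibrinogen. LFA-1 is carried by most leukocytes, CD11b is abundant on neutrophils, monocytes and macrophages, and CD11c is a marker of dendritic cells and of the macrophages that gather around dying adipocytes in obese fat.

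The genes of the alpha chains lie on chromosome 7 and that of the beta chain on chromosome 10, all on the plus strand (GENCODE vM21, build GRCm38). *Itgal* spans chr7:127296260-127335138. *Itgam* spans chr7:128062640-128118491, *Itgax* chr7:128129547-128150657 and *Itgad* chr7:128154376-128223816, so that gaps of 11.1 kb and 3.72 kb with 0 protein-coding genes separate the 3 neighbours. RefSeq gives *Itgad* a shorter span, chr7:128173933-128205504, which starts farther from *Itgax*. *Itgal* is 727.5 kb (38 protein-coding genes) from *Itgam*. *Itgb2* spans chr10:77530252-77565708.

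The sequences before the transcription starts of the neighbouring genes *Itgam* and *Itgax* are shown as a description. They come from the reference genome, not from these mice, and a link to the levels was not tested. RefSeq's promoter table for GRCm38.p6 matched 2 of the 5 genes. The lines below give 250 bases for *Itgam* (chr7:128062390-128062639) and 226 for *Itgax* (chr7:128129300-128129525), both plus strand. Each ends at the base before the RefSeq start of the gene, which for *Itgax* lies before the GENCODE start. Capitals mark the motifs searched on both strands, namely the PU.1 core GAGGAA, the RUNX core TGTGGT and the SP1 core GGGCGG.
Itgam: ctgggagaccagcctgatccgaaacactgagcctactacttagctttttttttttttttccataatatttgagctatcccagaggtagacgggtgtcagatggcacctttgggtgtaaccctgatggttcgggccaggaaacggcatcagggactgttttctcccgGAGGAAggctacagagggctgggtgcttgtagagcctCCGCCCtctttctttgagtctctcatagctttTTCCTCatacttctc
Itgax: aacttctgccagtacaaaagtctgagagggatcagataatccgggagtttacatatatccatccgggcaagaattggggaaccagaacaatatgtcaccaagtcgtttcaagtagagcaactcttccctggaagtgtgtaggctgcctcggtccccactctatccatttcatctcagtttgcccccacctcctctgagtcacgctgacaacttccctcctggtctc
The *Itgam* window held the PU.1 core at -84 to -79 on the plus strand and at -15 to -10 on the minus strand, and the SP1 core at -47 to -42 on the minus strand, counted from the start. No match of the 3 motifs was found in the *Itgax* window, where the search covered 250 bases and so ran past the printed 226. Of all 32851 promoters in the table, 23.3% hold the PU.1 core, 14.0% the RUNX core and 32.7% the SP1 core within the 250 bases before the start. A match of 6 letters describes the sequence and does not show binding.

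Depth lay between 49575113 and 66360046 counts per library. Genes of the seminal vesicle secretions took 58.6%, 11.2% and 2.30% of the counts of NCD replicates 1, 2 and 3, and between 2 and 8 counts of an HFD library, and 9 of the 11 such genes fell on HFD (11 without NCD replicate 1, 0 with any other mouse left out, where 11 had an unadjusted p under 0.05 in edgeR). Results are therefore also given without NCD replicate 1. Levels are CPM, the counts relative to library size, after scaling with edgeR's TMM method (TMM-scaled CPM), which gave that library a factor of 0.496 and the others 1.02 to 1.27, and are listed in the order of replicates 1, 2 and 3 of a diet. The adipocyte gene *Adipoq* was present in every library, at 532 to 2695 TMM-scaled CPM on NCD and 1139 to 1653 on HFD. Of the 6 adipocyte genes 0 passed in edgeR, with 0 at an unadjusted p under 0.05 and 0 with DESeq2 or limma. Without NCD replicate 1, 3 fell, beside 10.1% of all genes called lower. Diets were compared with edgeR's quasi-likelihood test and Benjamini-Hochberg adjustment over 15241 genes, and a gene is said to have risen or fallen at an adjusted p under 0.05.

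All 5 beta-2 integrin genes had higher values in every HFD-fed mouse than in any NCD-fed mouse, a pattern shown by 20.5% of all tested genes. *Itgb2*, *Itgam* and *Itgad* rose past the adjusted threshold, and *Itgax* and *Itgal* narrowly missed it. These 3 of 5 genes stand beside 5.58% of all tested genes called higher and 1.9% called lower. Without NCD replicate 1 all 5 passed, beside 10.7% of genes called higher and 10.1% called lower. With NCD replicate 2, NCD replicate 3 or any HFD mouse left out none of the 5 passed in edgeR. There 5 of 5 had an unadjusted p under 0.05. In those fits only 2 to 7 of the 15433 to 15764 tested genes passed, and 2988 to 4345 had an unadjusted p under 0.05. The loss of the threshold was thus not particular to the family. With DESeq2 on all mice 5 of 5 passed, beside 14.1% of genes called higher. The median log2 fold change over the 5 genes was 2.85, and over all tested genes it was -0.08. An exact two-sided permutation test gave p = 0.1 for each of the 5 genes, the smallest value possible with 3 mice against 3.

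**Figure D1:**
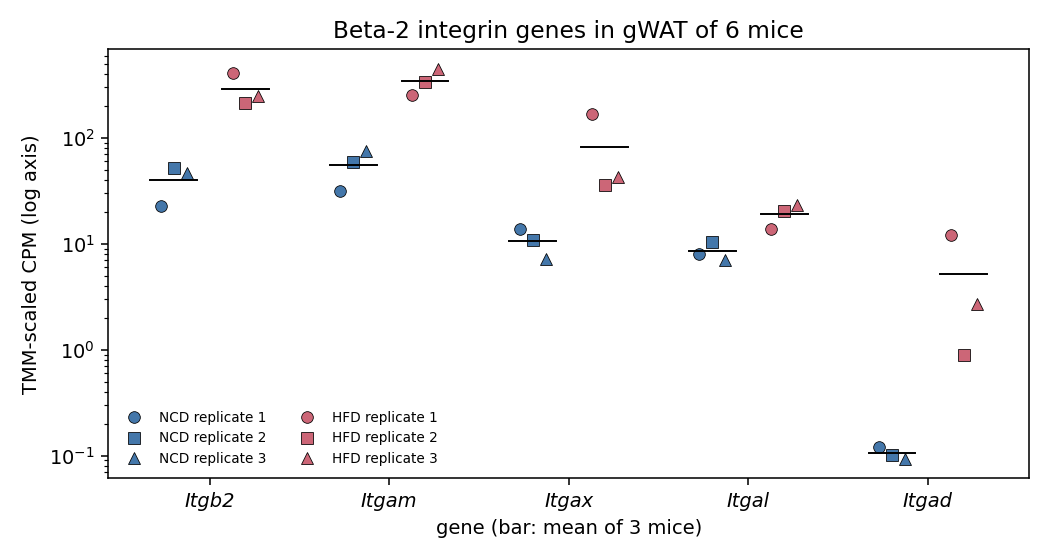
TMM-scaled CPM of the 5 genes (log axis) in each of 3 NCD-fed and 3 HFD-fed mice, with bars at the mean of a diet. The HFD points lie above the NCD points for every gene, HFD replicate 1 is the highest for *Itgb2*, *Itgax* and *Itgad*, and it is the lowest HFD mouse for *Itgam* and *Itgal*.

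*Itgb2* encodes CD18, the chain that every receptor of the family shares. Its level was 22.7, 51.6 and 47.1 TMM-scaled CPM on NCD and 409, 213 and 250 on HFD. The lowest HFD mouse was thus well above the highest NCD mouse. Means were 40.4 ± 15.5 (SD, n = 3) on NCD and 291 ± 104 (SD, n = 3) on HFD. *Itgb2* thus rose 7.19-fold, by 2.85 on the log2 scale (standard error 0.422, adjusted p = 0.0237 from edgeR). Without NCD replicate 1, the lowest of the 6, it was 2.57 (adjusted p = 0.00870 from edgeR), and with any other mouse left out it lay between 2.52 and 3.06 with adjusted p-values from 0.0588 to 0.0983.

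*Itgam*, the gene of CD11b, was at 31.5, 58.8 and 75.7 TMM-scaled CPM on NCD and at 253, 336 and 449 on HFD. The diets were far apart, and the mouse with the highest *Itgb2* had the lowest *Itgam* of the HFD group. Means were 55.3 ± 22.3 (SD, n = 3) on NCD and 346 ± 98.2 (SD, n = 3) on HFD. *Itgam* rose by 2.64 on the log2 scale (standard error 0.401, adjusted p = 0.0240 from edgeR), or 6.25-fold. The change was 2.38 without NCD replicate 1 (adjusted p = 0.00891 from edgeR) and 2.42 to 2.95 with any other mouse left out (adjusted p from 0.0581 to 0.102). The annotated span of *Itgam* overlaps *Gm49368* on the same strand, and the sources used here do not give how reads on both were counted.

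*Itgax*, the gene of CD11c, was at 13.9, 10.96 and 7.18 TMM-scaled CPM on NCD and at 169, 36.0 and 43.1 on HFD. HFD replicate 1 stood apart from both other HFD mice, which lay close to each other and above all NCD mice. Means were 10.7 ± 3.35 (SD, n = 3) on NCD and 82.8 ± 74.9 (SD, n = 3) on HFD. With a standard error of 0.688, the log2 fold change of 2.96 missed the threshold (adjusted p = 0.0549 from edgeR). Its size rested in part on HFD replicate 1, without which it was 1.90 (adjusted p = 0.0603 from edgeR). Without NCD replicate 1 it was 3.20 and passed (adjusted p = 0.0441 from edgeR).

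*Itgal*, the gene of CD11a, had the smallest difference of the family. It was at 8.04, 10.5 and 6.98 TMM-scaled CPM on NCD and at 13.8, 20.5 and 23.5 on HFD. The groups did not overlap, but the gap between them was narrower than for *Itgb2*, *Itgam* or *Itgax*. Means were 8.50 ± 1.79 (SD, n = 3) on NCD and 19.3 ± 4.95 (SD, n = 3) on HFD. The log2 fold change of 1.18 (standard error 0.274) had an adjusted p of 0.0544 from edgeR, and without NCD replicate 1 it was 1.16 with an adjusted p of 0.0470.

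*Itgad*, the gene of CD11d, was close to undetected on NCD. It received 4, 6 and 5 counts in NCD replicates 1, 2 and 3, in all 15 counts with a 95% Poisson interval of 8.40 to 24.7 that covers counting error only. HFD replicates 1, 2 and 3 held 693, 74 and 170 counts. In TMM-scaled CPM the NCD mice were at 0.122, 0.1004 and 0.093, and the HFD mice were at 12.0, 0.887 and 2.71. HFD replicate 1 was highest, as for *Itgax*. *Itgad* rose by 5.62 on the log2 scale (standard error 1.12, adjusted p = 0.0411 from edgeR), the largest change in the family. It was 5.73 without NCD replicate 1 (adjusted p = 0.0412 from edgeR), 4.09 without HFD replicate 1 (adjusted p = 0.0600 from edgeR) and at most 6.13 with any other mouse left out, where adjusted p-values reached 0.124. With limma on log2(TMM-scaled CPM + 1) it was 2.03 (adjusted p = 0.125), a scale on which low levels are compressed.

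*Itgad* counts have to be read with those of its neighbour. The longest *Itgad* transcript shares 6 stretches of at least 50 bases with the longest *Itgax* transcript base for base, the longest being 188 bases, and they make up 678 of its 4105 bases (16.5%). No stretch of that length is shared between any other pair of the 5 genes. Identity over the aligned bases was 72.6% for *Itgax* and *Itgad*, 65.7% for *Itgax* and *Itgam* and 65.0% for *Itgam* and *Itgad*. The sources used here do not give how reads that match both *Itgax* and *Itgad* were assigned. For every 100 counts of *Itgax* there were 0.879, 0.916 and 1.30 counts of *Itgad* on NCD and 7.10, 2.46 and 6.29 on HFD. The ratio was thus higher in each HFD mouse than in any NCD mouse. The GENCODE span of *Itgad*, longer than that of RefSeq, also overlaps *Gm17831*, a pseudogene on the same strand, and genes on the opposite strand, among them *Cox6a2*. The labels name a stranded library kit, and the strand setting of the counting was not given in them.

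Levels of different genes were compared within a mouse per length, as FPKM computed from TMM-scaled counts and the exons of GENCODE vM21. The order from high to low was *Itgb2*, *Itgam*, *Itgax*, *Itgal* and *Itgad*. *Itgb2* was at 7.64, 17.4 and 15.8 FPKM on NCD and 138, 71.6 and 84.3 FPKM on HFD, and *Itgam* at 6.39, 11.9 and 15.4 FPKM on NCD and 51.4, 68.3 and 91.1 FPKM on HFD. These genes were not separated beyond their spread, since the log2 difference within a mouse averaged 0.37 ± 0.56 (SD, n = 6) and was positive in 5 of 6 mice. *Itgam* exceeded *Itgax* in 6 of 6 mice (mean log2 difference 2.18 ± 1.22, SD, n = 6), with like means on NCD (2.15) and HFD (2.21). *Itgax* exceeded *Itgal* in 6 of 6, by 0.86 ± 0.42 on NCD and 2.33 ± 1.60 on HFD (SD, n = 3 each). *Itgal* exceeded *Itgad* in 5 of 6 mice, by 5.62 ± 0.37 on NCD and 2.04 ± 2.203 on HFD, the exception being HFD replicate 1 with a difference of -0.37.

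The make-up of the alpha chains within each mouse is free of scaling between libraries. *Itgam* made up 58.7%, 74.0% and 84.7% of the summed alpha chain FPKM on NCD and 53.9%, 85.3% and 86.5% on HFD. *Itgax* made up 29.4%, 15.7% and 9.14% on NCD and 40.9%, 10.4% and 9.43% on HFD. The *Itgax* share therefore varied within each diet far more than between them, with a difference of 2.18 percentage points (exact two-sided permutation test, p = 0.8) that turned to -8.16 without HFD replicate 1 and to -2.29 without NCD replicate 3. *Itgal* made up 11.6%, 10.2% and 6.03% on NCD and 2.27%, 4.02% and 3.49% on HFD, without overlap. *Itgad* stayed under 3% in every mouse, at 0.119% to 0.261% on NCD and 0.258% to 2.93% on HFD. The summed alpha chain FPKM was 1.42, 0.929 and 1.15 times that of *Itgb2* on NCD and 0.692, 1.12 and 1.25 times on HFD, so that the diets overlapped.

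**Figure D2:**
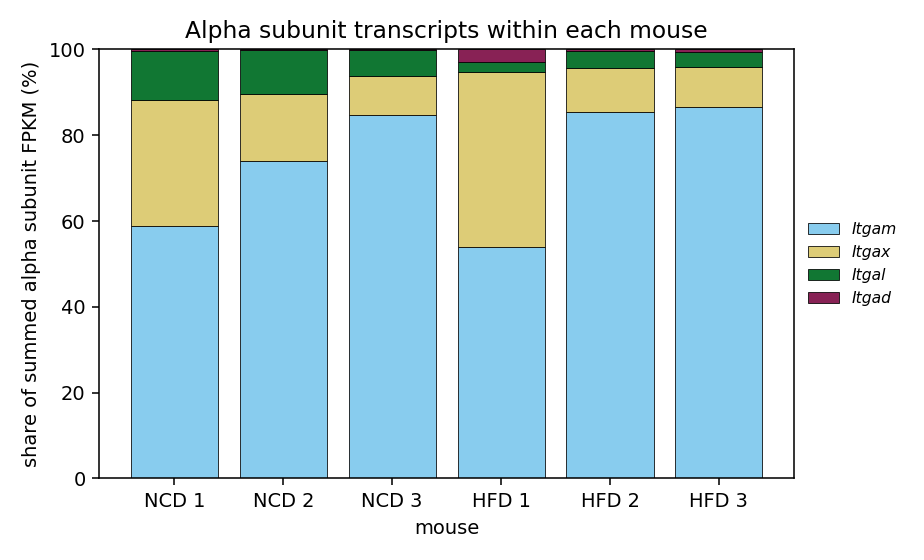
Share (%) of each alpha chain gene in the summed alpha chain FPKM of each mouse. *Itgam* is the largest share in all 6 mice, and the *Itgax* share is highest in HFD replicate 1 (40.9%) and NCD replicate 1 (29.4%).

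Counts of the family were next set beside those of *Ptprc*, which encodes CD45 and is carried by leukocytes in general, and of *Adgre1*, which encodes the macrophage antigen F4/80. *Ptprc* was at 50.1, 80.9 and 61.2 TMM-scaled CPM on NCD and 142, 209 and 144 on HFD, and rose by 1.36 on the log2 scale (adjusted p = 0.0360 from edgeR). *Adgre1* was at 25.5, 57.2 and 36.2 on NCD and 418, 211 and 233 on HFD, and rose by 2.86 (adjusted p = 0.0238 from edgeR). With any mouse other than NCD replicate 1 left out neither passed, with adjusted p-values up to 0.118 for *Ptprc* and 0.0978 for *Adgre1*. In all, 15 ratios and shares were tested by exact two-sided permutation, where 3 mice against 3 cannot go below p = 0.1. No adjusted p was below 0.3.

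*Itgb2* followed *Adgre1* closely, with 89.0, 90.2 and 130 counts of *Itgb2* per 100 of *Adgre1* on NCD and 97.8, 101 and 108 on HFD. The diets overlapped and the log2 difference was 0.0089 (SD 0.310 on NCD and 0.0690 on HFD, n = 3 each, exact permutation p = 1). Beside *Ptprc* the same gene had 45.3, 63.8 and 76.9 counts per 100 on NCD and 289, 102 and 174 on HFD, a log2 difference of 1.51 without overlap (exact permutation p = 0.1, adjusted 0.3).

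*Itgam* had 123, 103 and 209 counts per 100 of *Adgre1* on NCD and 60.5, 160 and 193 on HFD, which overlapped (log2 difference -0.17, exact permutation p = 0.8, n = 3 each). Per 100 counts of *Ptprc* it had 62.8, 72.7 and 124 on NCD and 178, 161 and 311 on HFD, which did not overlap (log2 difference 1.33, exact permutation p = 0.1, adjusted 0.3). *Itgax* overlapped between the diets beside both references, with log2 differences of -0.23 to *Adgre1* (exact permutation p = 0.5) and 1.27 to *Ptprc* (exact permutation p = 0.2). Its ratio to *Adgre1* was highest in NCD replicate 1, at 54.4 per 100, and second highest in HFD replicate 1, at 40.4 per 100, whereas the other 4 mice lay between 17.1 and 19.8. Without NCD replicate 1 the difference to *Adgre1* turned to 0.26. The difference to *Ptprc* was 0.47 without HFD replicate 1 and 1.86 without HFD replicate 2.

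*Itgal* was lower on HFD relative to the macrophage gene. It had 31.5, 18.3 and 19.3 counts per 100 of *Adgre1* on NCD and 3.30, 9.74 and 10.1 on HFD. Every HFD mouse was lower, with a log2 difference of -1.70 (exact permutation p = 0.1, adjusted 0.3) that was -1.45 without NCD replicate 1. Beside *Itgb2* its log2 difference was -1.71, also without overlap (p = 0.1 from the same exact test). Beside *Ptprc* it had 16.1, 12.9 and 11.4 counts per 100 on NCD and 9.74, 9.83 and 16.3 on HFD, which overlapped (log2 difference -0.20, exact permutation p = 0.6). *Itgad* was higher on HFD beside *Ptprc* without overlap (log2 difference 3.37, exact permutation p = 0.1), and overlapped beside *Adgre1* (1.87, exact permutation p = 0.2). Single mice moved both values. The difference to *Ptprc* was 2.29 without HFD replicate 1 and 4.45 without HFD replicate 2, and the difference to *Adgre1* was 1.20 and 2.58.

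**Figure D3:**
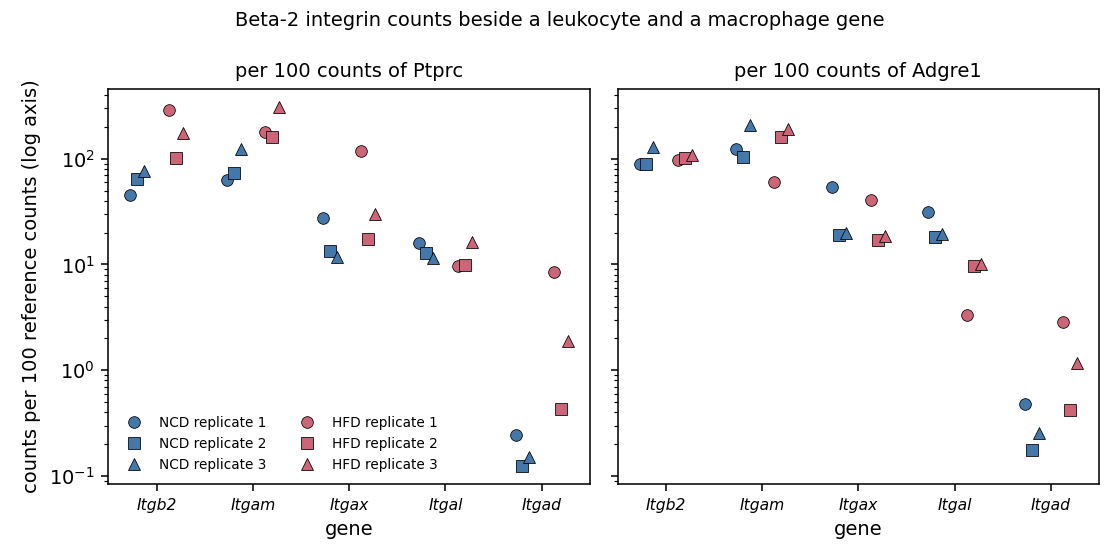
Counts of each beta-2 integrin gene per 100 counts of *Ptprc* (left) and of *Adgre1* (right) in each mouse, on a log axis. Beside *Adgre1* the *Itgb2* points of both diets coincide at about 89 to 130 per 100, and the *Itgal* points of HFD-fed mice lie below those of NCD-fed mice.

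The genes of the family were not highest in the same HFD mouse. *Itgax* and *Itgad* were highest in HFD replicate 1, *Itgam* and *Itgal* in HFD replicate 3. For every 100 counts of *Itgam* there were 66.9 of *Itgax* in HFD replicate 1 but 10.7 and 9.60 in HFD replicates 2 and 3, and 44.0, 18.6 and 9.49 in NCD replicates 1, 2 and 3. This ratio was chosen after its values were seen and was not tested.

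Marker genes of cell types that carry these receptors varied between the same mice. The 10 macrophage genes summed to 556, 1221 and 1084 TMM-scaled CPM on NCD and 4329, 2862 and 3220 on HFD, highest in HFD replicate 1. Of the list 7 rose and none fell in edgeR, and 9 rose without NCD replicate 1. Of all tested genes 5.58% were called higher, and 10.7% without NCD replicate 1. The lysosomal *Cd68* (log2 fold change 3.17), the Fc receptor *Fcgr1* (3.16) and the complement genes *C1qb* (1.95) and *C1qc* (1.69) were among those that rose, and the efferocytosis receptor *Mertk* had 0.23 (adjusted p = 0.545 from edgeR). None of the 10 passed when a mouse other than NCD replicate 1 was left out (9 of 10 at an unadjusted p under 0.05). In those fits 2 to 7 of all genes passed (2988 to 4345 at an unadjusted p under 0.05).

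The 7 neutrophil genes summed to 4.20, 9.55 and 6.48 TMM-scaled CPM on NCD and 20.3, 154 and 419 on HFD, so that their order over the HFD mice was that of *Itgam* and the reverse of that of the *Itgax* to *Itgam* ratio. *S100a9*, a calcium-binding protein abundant in neutrophils, was at 0, 0.435 and 0.298 on NCD and 0.416, 50.7 and 164 on HFD. *Csf3r*, the receptor of granulocyte colony-stimulating factor, was the only one of the 4 tested that rose (log2 fold change 3.71, adjusted p = 0.0495 from edgeR), and it lost the threshold with any mouse left out, including NCD replicate 1 (adjusted p = 0.0533), with values up to 0.140. With limma 0 of the 4 passed (3 at an unadjusted p under 0.05), and with DESeq2 4 passed, beside 14.1% of genes called higher. *Ly6g* and *Retnlg*, both defining for neutrophils, had no count in any NCD library, and *Ly6g* reached at most 0.175 TMM-scaled CPM on HFD. The part of neutrophils in the *Itgam* level was not tested.

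Of the dendritic cell list (*Flt3*, *Zbtb46*, *Xcr1*, *Clec9a*, *Cd209a*, *Ccr7* and *Batf3*), whose cells carry CD11c, 0 of 7 genes passed in edgeR (3 at an unadjusted p under 0.05), and 2 passed with DESeq2. With DESeq2 14.1% of all tested genes were called higher. The list summed to 17.2 to 24.8 TMM-scaled CPM on NCD and 30.8 to 38.6 on HFD, and HFD replicate 1, highest in *Itgax*, had the lowest sum of the HFD group. The 8 genes of T and NK cells, which carry LFA-1, summed to 13.8 to 22.8 on NCD and 17.5 to 25.9 on HFD. The 5 B cell genes summed to 4.20 to 17.8 on NCD and 5.55 to 17.9 on HFD. Neither list held a gene past the threshold in edgeR, with 0 genes at an unadjusted p under 0.05 and 0 with DESeq2 or limma. Of the 6 leukocyte genes 5 rose, led by *Cd53* (2.76) and *Laptm5* (2.38), beside 5.58% of all tested genes called higher. The exception was *Cd52*, with 1883 TMM-scaled CPM in NCD replicate 1, against 51.6 to 198 elsewhere. None of the leukocyte genes passed when a mouse other than NCD replicate 1 was left out (5 or 6 of 6 at an unadjusted p under 0.05). In those fits 2 to 7 of all genes passed (2988 to 4345 at an unadjusted p under 0.05).

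**Figure D4:**
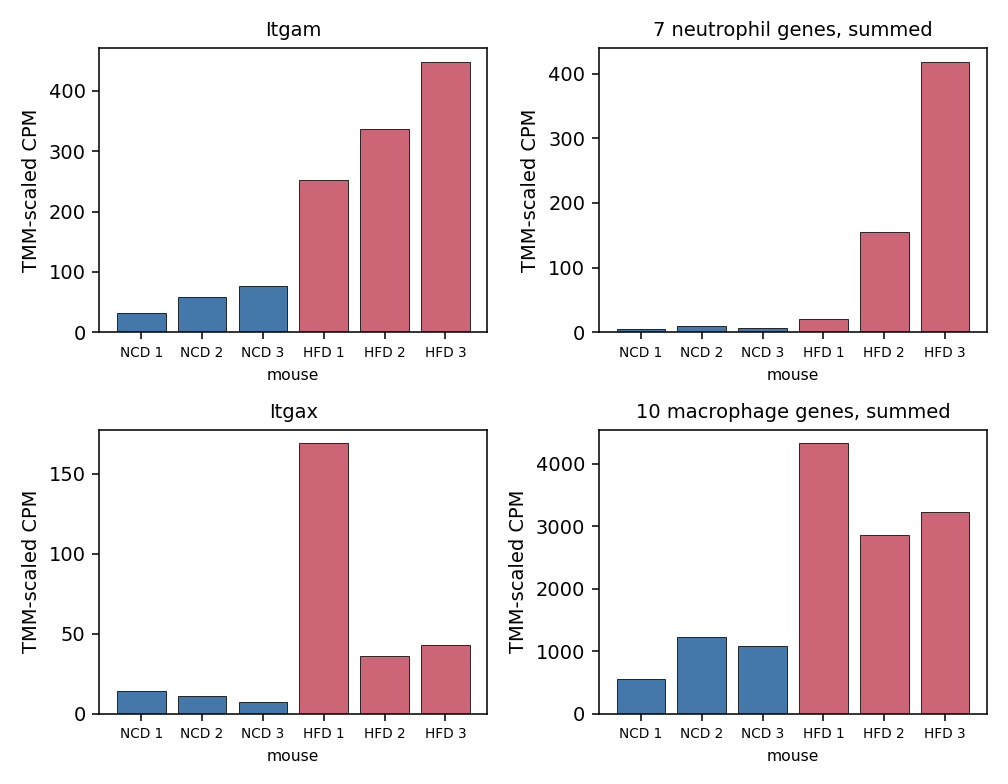
TMM-scaled CPM (linear axes from 0) of *Itgam* and of 7 neutrophil genes summed (top), and of *Itgax* and of 10 macrophage genes summed (bottom), in each mouse; NCD in blue and HFD in red. Both upper panels are highest in HFD replicate 3, at 449 and 419, and both lower panels are highest in HFD replicate 1, at 169 and 4329.

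The ligands of the family were examined next, in a list of 16 genes of which 11 had enough counts for a test. *Icam1*, which encodes the main counter-receptor of LFA-1 and Mac-1, was at 15.9, 17.8 and 16.5 TMM-scaled CPM on NCD and 36.7, 61.9 and 63.9 on HFD. It rose by 1.70 on the log2 scale (adjusted p = 0.0228 from edgeR), and which cells carried it was not tested. *Vcam1*, a ligand of the alpha-4 integrins that CD11d also binds, was at 13.1, 21.5 and 20.4 on NCD and 45.3, 69.9 and 68.0 on HFD, and rose by 1.73 (adjusted p = 0.0253 from edgeR). Both were lowest in HFD replicate 1 among the HFD mice, without overlap between the diets. They were the only 2 of 11 that passed, none fell, and the median over the 11 was 0.64. Of all tested genes 5.58% were called higher. Without NCD replicate 1, 4 passed, with *Icam2* and *Thy1* in addition (0.60 and 1.01), beside 10.7% of all genes called higher. With any other mouse left out none did (3 or 4 at an unadjusted p under 0.05). In those fits 2 to 7 of all genes passed (2988 to 4345 at an unadjusted p under 0.05).

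Complement *C3*, whose fragment iC3b is the ligand of Mac-1 and the CD11c receptor, was at 720 to 1596 TMM-scaled CPM on NCD and 1130 to 2343 on HFD. Its groups overlapped (log2 fold change 0.54, adjusted p = 0.456 from edgeR). The fibrinogen chains were almost absent: *Fga* had no count on NCD and at most 1.04 TMM-scaled CPM on HFD, and *Fgb* and *Fgg* did not exceed 1.11. The junctional *F11r* and *Jam2* stood at -0.19 (adjusted p = 0.702 from edgeR) and 0.11 (adjusted p = 0.881) on the log2 fold scale.

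Integrins are switched to their binding state from inside the cell, by talin and kindlin at the beta chain and by the Rap1 pathway. Of the 13 genes listed for this step 6 rose and none fell, beside 5.58% of all tested genes called higher. The median over the 13 was 0.80. *Fermt3*, kindlin-3 of blood cells, was at 12.1, 22.0 and 16.2 TMM-scaled CPM on NCD and 93.0, 71.3 and 101 on HFD (log2 fold change 2.40, adjusted p = 0.0212 from edgeR). *Fyb* (2.50) and *Skap2* (1.34), which encode adaptors, and *Apbb1ip* (2.31), *Rassf5* (1.38) and *Rap1b* (1.21), which encode the Rap1 effectors RIAM and RAPL and Rap1b itself, rose as well. The ubiquitous talin gene *Tln1* had 0.80 and missed the threshold (adjusted p = 0.0860 from edgeR), and passed without NCD replicate 1 (0.89, adjusted p = 0.0386). *Rap1a* had 0.03 (adjusted p = 0.929 from edgeR). *Skap1*, known from T cells, reached 32.8 TMM-scaled CPM in NCD replicate 1, against 1.10 to 3.53 elsewhere. None of the 13 passed when a mouse other than NCD replicate 1 was left out (7 or 8 at an unadjusted p under 0.05). In those fits 2 to 7 of all genes passed (2988 to 4345 at an unadjusted p under 0.05).

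Downstream of bound beta-2 integrins, Src-family kinases phosphorylate ITAM adaptors that recruit Syk. All 12 genes listed for this signalling rose, with a median of 2.45, and all 12 also passed without NCD replicate 1, with DESeq2 and with limma. Of all tested genes 5.58% were called higher in the main fit, 10.7% without NCD replicate 1 and 14.1% with DESeq2. With limma 901 of 15241 were called higher. *Tyrobp*, the adaptor DAP12, was at 20.0, 41.4 and 31.2 TMM-scaled CPM on NCD and 254, 138 and 198 on HFD (log2 fold change 2.67, adjusted p = 0.0219 from edgeR). *Fcer1g*, the other ITAM adaptor of the list, rose by 2.53 and the kinase gene *Syk* by 2.74. The Src-family genes *Fgr* and *Lyn* rose by 2.94 and 1.76, and the exchange factor *Vav1* by 2.61. None of the 12 passed when a mouse other than NCD replicate 1 was left out (12 of 12 at an unadjusted p under 0.05). In those fits 2 to 7 of all genes passed (2988 to 4345 at an unadjusted p under 0.05).

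The other integrin subunits served as the comparison within the superfamily, with 21 genes in the table and 20 tested. *Itgb2l* was not analysed here, and *Itgb6* had too few counts. Of the 20, 3 rose and none fell: *Itgb7* (log2 fold change 1.75, adjusted p = 0.0360 from edgeR), *Itga4* (1.44, adjusted p = 0.0277) and *Itgav* (0.94, adjusted p = 0.0223). Of all tested genes 5.58% were called higher and 1.9% lower. *Itga4* and *Itgb7* encode the chains of a leukocyte homing receptor. *Itgb7* was at 7.34, 11.9 and 8.86 TMM-scaled CPM on NCD and 20.0, 32.9 and 41.5 on HFD, and *Itga4* at 15.6, 24.8 and 16.5 on NCD and 54.6, 42.2 and 57.9 on HFD. The median over the 20 was 0.50, below each of the 5 beta-2 integrin genes, whose smallest value was 1.18. Without NCD replicate 1, 6 of 20 passed, all higher, beside 10.7% of all genes called higher and 10.1% called lower. With any other mouse left out none did (5 to 7 at an unadjusted p under 0.05). In those fits 2 to 7 of all genes passed (2988 to 4345 at an unadjusted p under 0.05).

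*Itgae* encodes CD103, an alpha chain that pairs with beta-7 and marks intraepithelial T cells and a class of dendritic cells. It lay in the opposite direction to the beta-2 alpha chains. Its level was 7.73, 7.68 and 5.92 TMM-scaled CPM on NCD and 0.572, 2.52 and 2.12 on HFD. Every HFD mouse was lower, and HFD replicate 1 was the lowest. The log2 fold change of -2.03 (standard error 0.556) missed the threshold (adjusted p = 0.0765 from edgeR), also without NCD replicate 1 (-1.94, adjusted p = 0.0711). It passed with DESeq2 (-2.03, adjusted p = 0.00285) and with limma (-1.64, adjusted p = 0.0428), and over all alternatives the adjusted p ranged from 0.00285 to 0.206. *Itgae* is described because of this direction and was chosen after its values were seen. It was not the only such subunit. *Itga8* was at 12.4, 2.46 and 0.837 on NCD and 0.641, 0.779 and 0.510 on HFD. Its log2 fold change was -3.01 (adjusted p = 0.111 from edgeR) and -1.34 without NCD replicate 1. The untested *Itgb6* was also lower in every HFD mouse, with 67, 6 and 2 counts in NCD replicates 1, 2 and 3. Over these NCD mice *Itga8* and *Itgb6* declined together with the share of seminal vesicle counts (58.6%, 11.2% and 2.30%). *Itgae* changed far less between the same mice. A link of *Itga8* or *Itgb6* to the seminal vesicle RNA was not tested. The broadly expressed *Itgb1* was at 389 to 431 TMM-scaled CPM on NCD and 552 to 788 on HFD (log2 fold change 0.64, adjusted p = 0.135 from edgeR).

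**Figure D5:**
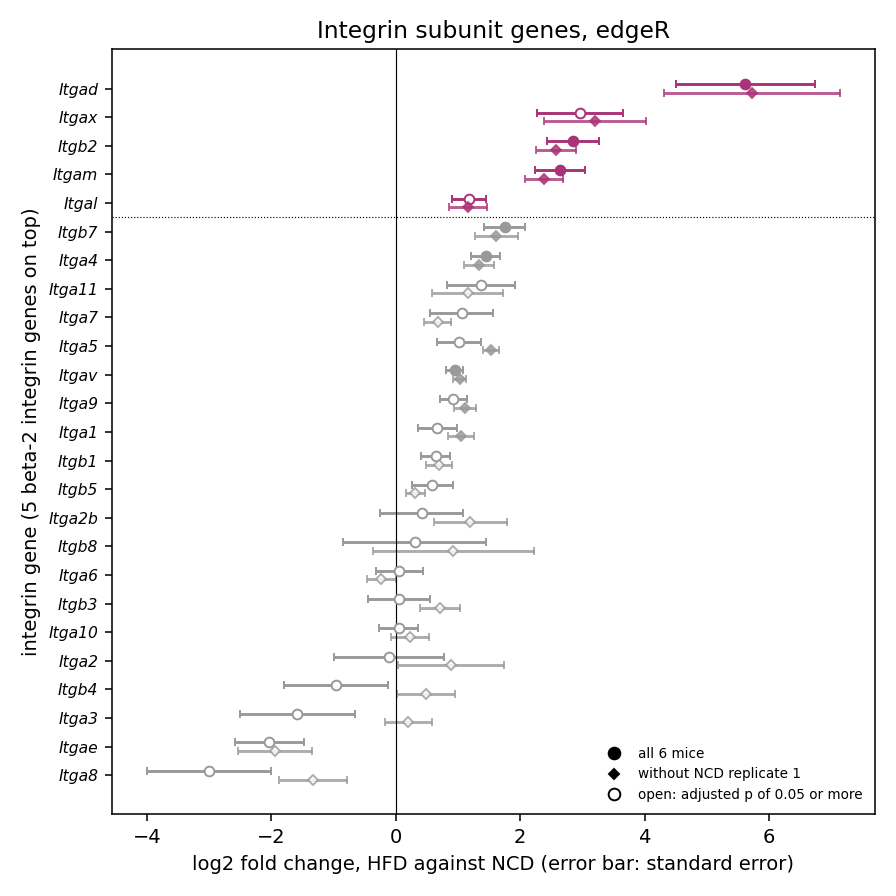
Log2 fold change (HFD against NCD, edgeR) with its standard error for the 5 beta-2 integrin genes (purple, top) and 20 other integrin subunit genes (grey), with all 6 mice (circles) and without NCD replicate 1 (diamonds); filled symbols passed an adjusted p under 0.05. The beta-2 integrin genes run from 1.18 to 5.62 and the others from -3.01 to 1.75.

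The genes whose profile over the 6 mice was most like that of each beta-2 integrin gene were looked up among 13590 tested genes with a mean of at least 1 TMM-scaled CPM. Likeness was the root mean square difference (RMS) between profiles of log2(TMM-scaled CPM + 1), each centred on its own mean, so that a smaller value is a closer profile. Low levels are compressed on this scale, so RMS values of genes of unlike level are not directly comparable. Nearest to *Itgb2* were *Arl11* (RMS 0.106), *Syk* (0.112) and *Tlr8* (0.113). *Syk*, a gene of the signalling list, is the kinase named above, and *Tlr8* encodes an endosomal RNA receptor. Nearest to *Itgam* were *Ncf1* (0.187), which encodes a subunit of the phagocyte NADPH oxidase, *Fcer1g* (0.191) and the immediate early gene *Fos* (0.197).

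*Itgax* had no neighbour that close. The nearest were *Pianp* (RMS 0.286), *Fgf13* (0.328) and *Serpinb9b* (0.335), each highest in HFD replicate 1. *Pianp* was at 1.83, 2.02 and 1.12 TMM-scaled CPM on NCD and 34.6, 5.62 and 5.44 on HFD. Nearest to *Itgad* were *Pvalb* (0.157), which encodes the calcium-binding parvalbumin, *Fgf13* (0.244) and *Ptchd1* (0.315), of which *Fgf13* is also near *Itgax*. *Itgal* was nearest to *Orai2* (0.0669), a calcium channel gene, *Arl4c* (0.0920) and *Cd163l1* (0.0996). Within the family the closest pair on this scale was *Itgax* and *Itgad* (0.412), which share the stretches of sequence given above, followed by *Itgam* and *Itgb2* (0.510), and the farthest was *Itgax* and *Itgal* (1.18). The order of pairs depends on the scale. With limma on it the diet change was 2.03 for *Itgad* and 2.53 for *Itgax*, against 5.62 and 2.96 in edgeR.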

How the data were processed

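RNA-seq of gWAT from 3 NCD-fed and 3 HFD-fed wild-type mice was analysed. The table the authors deposited holds unnormalized read counts for each NCBI gene identifier and mouse, and all columns matched a label (0 left out). The submitters' processing notes name bcl2fastq 2.20.0, Trimmomatic, HISAT2 2.1.0, StringTie 1.3.4d, DESeq2 and GRCm38 (mm10), with no role given. Of 19790 identifiers 19742 had a symbol, and the other 48 held 0.629% of the counts. In edgeR 4.0.16 (R 4.3.3), filterByExpr with a minimum count of 10 and a total of at least 15 kept 15241 genes, which after TMM scaling entered the quasi-likelihood test (glmQLFit, glmQLFTest). A standard error is the size of the log2 fold change over the root of its F statistic. FPKM used the union of GENCODE vM21 basic exons. Ratios are given per 100 counts, and their log2 values had 0.5 counts added and were tested by exact permutation (scipy 1.17.1). The depth was at least 49575113 counts per library, so that the spread between mice, not counting, limits all values but those near 0 counts. No pair of replicates was close to sampling noise (chi-square of 111 to 3438 per degree of freedom), and whether litter or cage was shared is not given, so p-values measure the spread between these mice.

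The members and lists were chosen with earlier results of these data known. Genes named are the 5 members, *Ptprc*, *Adgre1*, from each list up to 6 that passed with the largest change (or up to 4 of the most abundant), those without counts, and the 3 nearest profiles; other list genes that are named were chosen after their values were seen, and some list genes are not reported here. The alternatives were median-of-ratios, upper-quartile and total-count scaling, no filter, a mean of at least 1 TMM-scaled CPM, DESeq2 1.42.0, limma 3.58.1 with trend on log2(TMM-scaled CPM + 1), a replicate block, leaving out each mouse, 1 count added to ratios, and shares of counts in place of FPKM. The ratios of *Itgax* to *Itgam* and of *Itgad* to *Itgax* and the neutrophil list beside *Itgam* were chosen after seeing the data. The procedure was tested on simulated data. Transcripts were aligned with Biopython 1.88, and figures drawn with matplotlib 3.10.9 in Python 3.11.15. Protein sequences were not used here.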

Additional observations from a re-analysis of the deposited data

How the results depend on the processing

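All 5 genes were higher on HFD under all 14 alternatives of the test between diets. With total counts the median of all genes moved from -0.08 to 0.45, *Itgax* was at 3.52 and passed, and 6 other integrin genes passed, beside 959 of all genes. With DESeq2 *Itgax* (2.96) and *Itgal* (1.18) also passed, as did 5 family genes, 8 other integrin genes and 3904 of all genes (against 1139), 55.1% of them higher on HFD against 74.6%. With limma *Itgad* was at 2.03 and did not pass. With each mouse left out in turn the log2 fold changes ranged from 2.52 to 3.06 for *Itgb2*, 2.38 to 2.95 for *Itgam*, 1.90 to 3.34 for *Itgax*, 1.03 to 1.38 for *Itgal* and 4.09 to 6.13 for *Itgad*. The numbers past the threshold ranged from 0 to 5 in the family, 2 to 3234 among all genes, 0 to 6 among other integrins, 0 to 4 among ligands, 0 to 7 for activation and 0 to 12 for signalling, each highest without NCD replicate 1, and the cause was not tested.

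Same-numbered mice did not deviate together (correlations -0.050, -0.022 and -0.019), and no mouse correlated best with the one of its own number. The numbers are those of the sample labels, and the count table heads HFD replicate 3 with a different number. These values gave no sign that the numbers pair the samples. With 3 mice per diet, and seminal vesicle RNA varying among the NCD mice, the check cannot exclude a shared litter, cage or batch. With the replicate number as a block *Itgb2* was at 2.85, *Itgam* at 2.70 and *Itgad* at 4.84, and none passed. Under that block 12 of all genes passed and 0 of the family, other integrins, ligands, activation and signalling lists in edgeR, while 5, 8, 3, 8 and 12 had an unadjusted p under 0.05. The block changed no direction of the ratios.

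With each mouse left out the log2 ratios ranged from -0.67 to 0.35 for *Itgax* to *Itgb2* (positive without NCD replicate 1), -0.47 to 0.30 for *Itgam* to *Itgb2* (positive without HFD replicate 1), -0.63 to 0.26 for *Itgax* to *Adgre1*, -0.49 to 0.34 for *Itgam* to *Adgre1* and -0.085 to 0.19 for *Itgb2* to *Adgre1*. The *Itgax* share ranged from -8.16 to 7.85 percentage points. The cause of these reversals was not tested. The other 9 ratios kept their sign in every fit, though without HFD replicate 1 or 2 *Itgax* to *Ptprc* and *Itgad* to each reference moved by over 1.5 times. Depth limits values near 0 counts, such as *Itgad* and *S100a9* on NCD, and 3 mice per diet limit the rest.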
